A study of Mus musculus with 47 samples.

Results

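The 9 wild-type (WT) fibres with the highest myoglobin (Mb) transcript level were compared with the 9 that had the lowest, to ask whether fast type IIb fibres differ among themselves in oxidative genes. They were chosen by Mb alone, among 27 WT fibres in a series of 47 single fibres. Mb counts, scaled to each library's gene counts as CPM (counts per 1e6), were ranked over the WT fibres, and Mb was then left out of every comparison. The other 9 WT fibres lay between the classes. The muscle was the extensor digitorum longus (EDL), which lifts the toes and is almost wholly fast, and the mice were FVB/N at 2 to 3 months of age. WT mice carried both copies of Mybpc2, the gene of fast myosin binding protein C. In C2KO mice, per the study's methods, a Neo cassette flanked by LoxP sites stands in place of exons 2 to 22 of this gene. Fibres were freed with collagenase, and the RNA of each was sequenced separately. The labels name 3 WT and 2 C2KO mice but tie no fibre to a mouse, and they give no sex. The paper describes its single EDL fibre data as male and used fewer fibres per group than this series holds. Which fibres it used is not stated there. By the sex-linked counts given below, 12 of the 27 WT fibres had more Xist than Y-linked counts.

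Mybpc2 ran from 6563 to 11556 CPM over the WT fibres and from 2.61 to 47.6 CPM over the 20 C2KO fibres. Total gene counts of the 27 WT fibres lay between 7769593 and 14606631. Myh4, the myosin heavy chain of type IIb fibres, gave 99.3% to 99.7% of all myosin heavy chain counts in each of the 27 WT fibres, so both Mb classes were type IIb by their myosin. Pax7, Adipoq, Pecam1 and Ptprc, which mark satellite cells, adipocytes, endothelium and leukocytes, had a median of 0 CPM in both classes. These are single markers, and the sums of some marker lists were higher. Satellite cell markers had medians of 185 CPM in the high and 204 CPM in the low class, and pericyte markers 234 and 276 CPM. Fibroblast markers reached 96.2 CPM in the high class. A CPM is a share of a fibre's RNA, so its absolute amount is not known.

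Myoglobin is a haem protein of the muscle cytoplasm that binds oxygen and eases its passage to mitochondria. Slow and fast oxidative fibres are rich in it, whereas type IIb fibres, which run mainly on glycolysis, hold little. The respiratory chain passes electrons from NADH and succinate through complexes I to IV to oxygen, and ATP synthase uses the resulting proton gradient. Genes of this chain are switched on together in oxidative muscle, in part by nuclear respiratory factor 1 (NRF1) and the oestrogen-related receptors.

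Mb lies on mm10 chromosome 15 from 77015487 to 77050668, on the minus strand, with 1252 exonic bases in the counted annotation. Promoter windows of 250 bases before a RefSeq start site (GRCm38.p6) are shown for Mb and for the 3 respiratory genes that follow, so that the letters searched for motifs can be seen. RefSeq lists 3 starts for Mb, and the window shown is chr15:77022728-77022977, minus strand. Cox7a1 (chr7:30183921-30184170, plus strand), a complex IV subunit of heart and skeletal muscle, had the largest log2 fold change of the respiratory genes and was chosen for that. Ndufb2 (chr6:39592315-39592564, plus strand) of complex I and Cycs (chr6:50566570-50566819, minus strand), which encodes cytochrome c, were the most abundant genes of their lists whose window held an NRF1 motif or a receptor half-site. Capitals mark the motifs found, the half-site AAGGTCA in Ndufb2, the NRF1 motif GCGCATGCG on the opposite strand in Cycs, and the E-box CAGCTG in Mb.
Mb: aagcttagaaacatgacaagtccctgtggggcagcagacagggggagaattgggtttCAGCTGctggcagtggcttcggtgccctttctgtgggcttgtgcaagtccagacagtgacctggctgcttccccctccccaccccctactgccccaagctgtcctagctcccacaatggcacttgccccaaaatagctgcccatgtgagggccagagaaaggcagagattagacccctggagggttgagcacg
Cox7a1: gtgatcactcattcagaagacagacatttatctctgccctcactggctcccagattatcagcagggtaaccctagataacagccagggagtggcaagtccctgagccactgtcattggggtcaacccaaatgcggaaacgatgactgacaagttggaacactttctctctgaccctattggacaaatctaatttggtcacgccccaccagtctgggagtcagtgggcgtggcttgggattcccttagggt
Ndufb2: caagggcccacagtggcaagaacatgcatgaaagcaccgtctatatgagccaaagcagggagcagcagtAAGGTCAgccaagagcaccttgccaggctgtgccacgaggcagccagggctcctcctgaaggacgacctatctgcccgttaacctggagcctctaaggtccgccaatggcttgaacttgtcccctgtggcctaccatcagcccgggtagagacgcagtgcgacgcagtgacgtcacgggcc
Cycs: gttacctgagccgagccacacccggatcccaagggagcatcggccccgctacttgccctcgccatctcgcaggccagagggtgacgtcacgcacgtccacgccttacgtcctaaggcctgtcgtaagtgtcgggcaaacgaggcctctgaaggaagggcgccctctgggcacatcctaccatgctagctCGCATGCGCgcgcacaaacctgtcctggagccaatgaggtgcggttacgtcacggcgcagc
The 4 motifs were searched on both strands. The NRF1 motif was found in 7 of the 66 respiratory genes with a window (10.6%), against 1.45% of all 32536 windows of this length. The half-site AAGGTCA was found in 5 of the 66 (7.58%) against 4.09%, the ETS motif CCGGAAG in 11 (16.7%) against 6.95%, and CAGCTG in 6 (9.09%) against 13.1%. None of the 4 motifs occurred in the Cox7a1 window. These are matches of letters and no test was made.

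Among the 9 low-Mb fibres Mb ran from 14.4 to 57.1 CPM with a median of 49.0. In the 9 high-Mb fibres it ran from 91.97 to 181 CPM with a median of 115, which is 2.34-fold the low median. The rank itself fixed this gap, and it is no result. The last fibre inside the high class, s55, had 91.97 CPM (95% Wilson interval 86.9 to 97.3), and the first outside it, s63, had 90.2 CPM (83.9 to 97.0). At the low border s78 had 57.1 CPM (53.4 to 61.1) and s83, outside, had 59.9 CPM (54.8 to 65.6). Mb therefore formed a slope rather than 2 groups, and counting error alone could move the fibres at both borders. The extremes were set by 167 Mb counts in s6 and 2396 in s58. Intervals cover counting error only. Apol6, whose exons meet those of Mb on the opposite strand, had medians of 1.14 CPM in the high and 0.696 CPM in the low class.

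**Figure D1:**
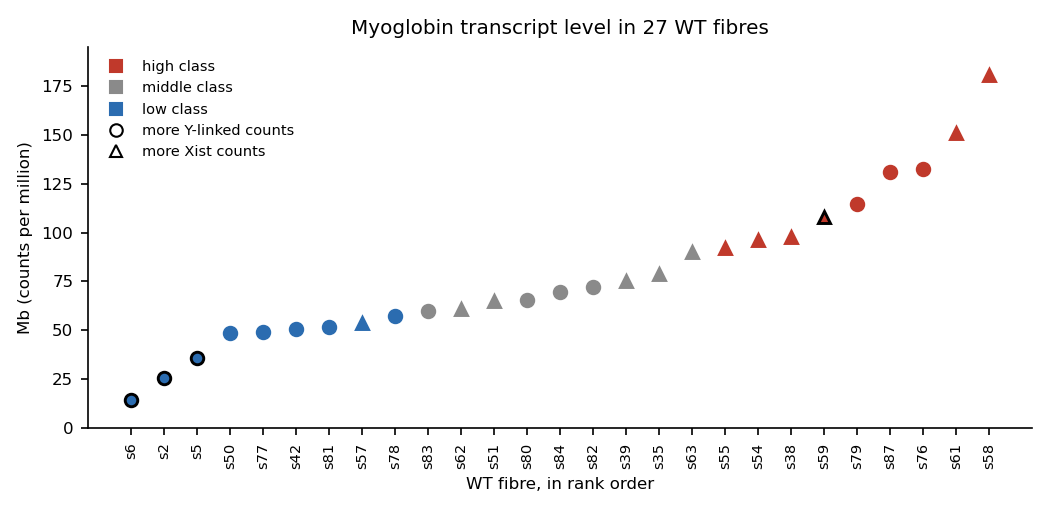
Mb level in CPM (vertical axis) of the 27 WT fibres in rank order (horizontal axis). Colour gives the class, shape the sex-linked class, and a black rim the 4 libraries that stood apart, s6, s2, s5 and s59. The points rise from 14.4 to 181 CPM with no break between the middle and the high class.

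The classes were unequal in 3 measured ways. By run code (called A, B and C), the high class held 3 fibres of run A, 4 of run B and 2 of run C. The low class held 4, 4 and 1. The labels do not state what these codes mean. They were taken as sequencing runs and served only as blocks. By sex-linked transcripts, 6 of the 9 high-Mb fibres and 1 of the 9 low-Mb fibres had more Xist than Y-linked counts, so sex and Mb class were nearly aligned. Mb ran from 14.4 to 133 CPM in the 15 fibres with Y-linked counts (median 57.1) and from 53.5 to 181 CPM in the 12 with Xist counts (median 91.1). In addition, 4 libraries stood apart. The high-Mb fibre s59 had 28821 CPM of Myh4, against 59557 CPM or more in the other 8, and 15.2% of its counts lay on transcripts under 1000 exonic bases, where the class median was 10.5%. The low-Mb fibres s2, s5 and s6, the lowest in Mb and all of run A, had up to 21052 CPM of Ttn, the giant titin transcript, where the low-class median was 6092 CPM. The respiratory result is therefore also given without these 4 fibres and within the fibres with Y-linked counts.

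Counts were summed by run and class into 6 pools, and high was compared with low within runs by edgeR's quasi-likelihood test. No gene of 11551 tested passed an adjusted p of 0.05 (0% called). At an unadjusted p under 0.05, 351 genes were higher and 592 lower in the high-Mb pools, and the smallest adjusted p was 0.556. On the same pools limma-voom called 0 genes, whereas DESeq2 called 25 higher and 79 lower. With single fibres as the unit and run as a covariate, 2 of 10139 genes passed (0.0197%), both lower in high-Mb fibres. Fibres of 1 mouse are not independent animals, so p-values over fibres, and those over pools, measure only the spread between these samples.

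The 2 genes of the single-fibre test were Jak1 and Pcdh7. Jak1, a tyrosine kinase of cytokine receptors (mm10 chromosome 4, 101151974 to 101265282, minus strand), had 262 to 416 CPM in low-Mb fibres (median 301) and 179 to 242 CPM in high-Mb fibres (median 221). The ranges did not overlap, but Jak1 was picked by the test on these same fibres, so the gap is no further result. Its log2 level fell by 0.57 with an SE of 0.09 (edgeR quasi-likelihood test, adjusted p = 0.0466). Pcdh7, a protocadherin of cell adhesion, had 1.59 to 17.2 CPM in low-Mb fibres and 0.508 to 1.85 CPM in high-Mb fibres, and it fell by 1.91 with an SE of 0.32 (edgeR, adjusted p = 0.0466). Once sex-linked class was added to the single-fibre test neither passed, and the 1 gene called there was another one. Neither passed when s2, s5 and s6 were left out, where the single-fibre test called 0 genes. The log2 fold change of Jak1 in the pools was -0.67 with and without these 3 fibres. Leaving out any 1 of 12 of the 18 fibres also gave 0 calls. Pcdh7 lay under the 10 CPM set for named genes and is given because only 2 genes passed.

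The respiratory chain stood higher in high-Mb fibres by a small amount in nearly all of its genes. Of 82 listed genes, 80 were tested (Ndufs5 and Cox4i2 had too few counts), and 79 of the 80 had a log2 fold change above 0. The median was 0.28, a 1.21-fold level, where the median of all 11551 genes was 0.02. In all 3 runs 77 of the 80 were higher, where 19.7% of all tested genes were. At an unadjusted p under 0.05, 55 of the 80 were higher, where 3.04% of all tested genes were. That count was 22 without s2, s5 and s6, 11 over single fibres with sex-linked class, 10 without s59, 7 with an exon-length offset and 0 without all 4 libraries. None of the 80 passed after adjustment in the WT pools by edgeR. Along log2 Mb over 27 fibres 1 of the 80 passed, where 1.2% of all 9455 genes did. It was Sdhd, a membrane anchor of complex II, which rose by 0.28 (edgeR adjusted p = 0.0492). With sex-linked class added 0 of the 80 passed, and without s2, s5 and s6 no gene at all did. The run medians were 0.39 in run C, 0.17 in run A and 0.23 in run B. The summed CPM of the 82 genes ran from 24756 to 32344 in low-Mb fibres (median 29771) and from 27432 to 42669 in high-Mb fibres (median 33717), so the classes overlapped. The fibre with the most Mb, s58, had the lowest sum of its class.

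**Figure D2:**
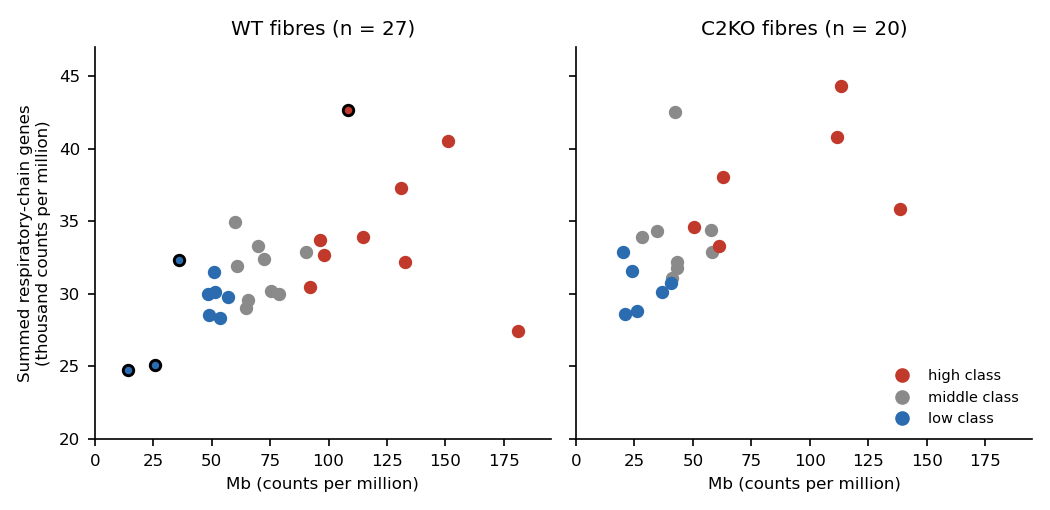
Summed CPM of the respiratory-chain genes (vertical axis, in units of 1000 CPM, not starting at 0) against Mb CPM (horizontal axis) for each of 27 WT fibres (left) and 20 C2KO fibres (right). Colours are Mb classes and black rims the 4 WT libraries that stood apart. The sum is larger at higher Mb in both panels. Exceptions are s58 at 181 CPM of Mb and 27432 CPM among WT fibres, and s740-5 at 42.3 and 42499 CPM among C2KO fibres.

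Over the 27 WT fibres Mb and this sum had a Pearson r of 0.51 and a Spearman rho of 0.55, as a description of fibres that share runs and mice. Within the 15 fibres with Y-linked counts r was 0.73 and rho 0.70, and within the 12 with Xist counts 0.28 and 0.41. Without the 2 fibres farthest from the median Mb of each, r was 0.72 and 0.73. Within runs r was 0.90 in run C (n = 7), 0.72 in run A (n = 10) and 0.17 in run B (n = 10). Without the 2 farthest fibres, r over WT fibres was 0.69, and within the runs it was 0.39, 0.16 and 0.82, so the value in a run rested on 1 or 2 fibres.

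Complex I takes electrons from NADH. Of its 36 tested genes 35 were higher, with a median of 0.27, and 35 were higher in each of the 3 runs. Ndufb9 (mm10 chromosome 15, 58933810 to 58939489), an accessory subunit, had 399 to 600 CPM in low-Mb fibres (median 493) and 501 to 781 CPM in high-Mb fibres (median 618). Its log2 fold change was 0.34 (SE 0.09). Ndufb2, shown above, had medians of 197 and 253 CPM in the low and high class and a log2 fold change of 0.41 (SE 0.14).

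All 14 genes of complexes II and III, which pass electrons from succinate and from complex I to cytochrome c, were higher in each run, with a median of 0.28. Uqcrc1 (chromosome 9, 108936648 to 108949641), a core protein of complex III, had 712 to 979 CPM in low-Mb fibres (median 876) and 829 to 1215 CPM in high-Mb fibres (median 1124), a log2 fold change of 0.24 (SE 0.09). Sdha, the flavoprotein of complex II, had medians of 706 and 773 CPM and 0.09 (SE 0.07). Cycs had medians of 190 and 213 CPM and 0.26 (SE 0.09).

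Complex IV reduces oxygen to water. Its 14 tested genes were all higher, 12 of them in each run, with a median of 0.30. Cox7a1 had 181 to 349 CPM in low-Mb fibres (median 216) and 211 to 399 CPM in high-Mb fibres (median 322), a log2 fold change of 0.54 (SE 0.19), which was 1.10 in run C, 0.20 in run A and 0.33 in run B. Cox6c had medians of 497 and 637 CPM and 0.30 (SE 0.08). Cox6a2, the muscle form of subunit 6a and the most abundant of the complex, had medians of 1869 and 2068 CPM and 0.12 (SE 0.10), with 4166 CPM in s59. All 16 genes of ATP synthase were higher in each run, with a median of 0.23. Its catalytic beta subunit Atp5b had 2773 to 3534 CPM in low-Mb and 3317 to 4130 CPM in high-Mb fibres, and 0.15 (SE 0.06). Atp5a1, the alpha subunit, had medians of 2235 and 2285 CPM and 0.11 (SE 0.07).

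Short transcripts as a whole were higher in high-Mb fibres, and most respiratory genes are short. The 758 tested genes under 1000 exonic bases outside the mitochondrial lists had a median of 0.17, and 77.3% of them were above 0. The 52 respiratory genes under 1000 bases had a median of 0.30. Genes over 5000 bases had a median of -0.15. Once a trend on exon length was taken out of the pools, the respiratory median was 0.11 and that of the other short genes was -0.01. The 76 cytosolic ribosomal protein genes, also short, had a median of 0.15 with 73 above 0. With the offset the respiratory median was close to that of glycolysis (0.10) and under that of the oxidative regulators (0.15). The part of transcript length in the respiratory difference was not tested further.

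The respiratory median was smaller without the libraries that stood apart, and no respiratory gene then reached an unadjusted p of 0.05 in the pools. Without s59, s2, s5 and s6 the median of the 80 respiratory genes was 0.17, with 78 above 0, whereas the ribosomal protein genes had a median of -0.01, with 34 of 74 above 0, and the other short genes one of 0.08. Along Mb within the 15 fibres with Y-linked counts, scaled to the difference in mean log2 Mb between the classes (1.59), the respiratory median was 0.23, with 78 of 80 above 0. Within those fibres without s2, s5 and s6 it was also 0.23, again with 78 above 0. Within the 12 fibres with Xist counts it was 0.13.

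The C2KO fibres gave a set of libraries in which no WT fibre took part. Within each name prefix, 740 and 2445, the 3 fibres with the most Mb were compared with the 3 with the least. All fibres of prefix 2445 had more Xist counts and all of prefix 740 more Y-linked counts. Unlike in WT, each comparison therefore lay within the same sex-linked class. Mb ran from 20.3 to 40.6 CPM in the 6 low fibres and from 50.3 to 138 CPM in the 6 high fibres. All 80 tested respiratory genes were higher in high-Mb C2KO fibres, with a median of 0.33 (1.25-fold), where the median of all 11316 genes was -0.01. The other genes under 1000 bases had a median of 0.11 there, and the ribosomal protein genes one of 0.09. The summed respiratory CPM ran from 28611 to 32890 in low-Mb and from 33287 to 44290 in high-Mb C2KO fibres, with no overlap. The C2KO fibres between the classes overlapped both, from 31082 CPM in s2445-11 to 42499 CPM in s740-5, which had 42.3 CPM of Mb. By complex the medians were 0.32 for complex I, 0.38 for II and III, 0.34 for IV and 0.29 for ATP synthase. Cox7a1 had the largest value among these genes in C2KO too, 0.70 (SE 0.17). The low-Mb C2KO fibres were all of 1 further run, D, and the high ones were 4 of run D, 1 of run E and 1 of run C. Within run D alone the median was 0.24, with 79 of 80 above 0, and without fibre s740-12, which stood apart in Pgp, Jak1 and Musk, it was 0.35.

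**Figure D3:**
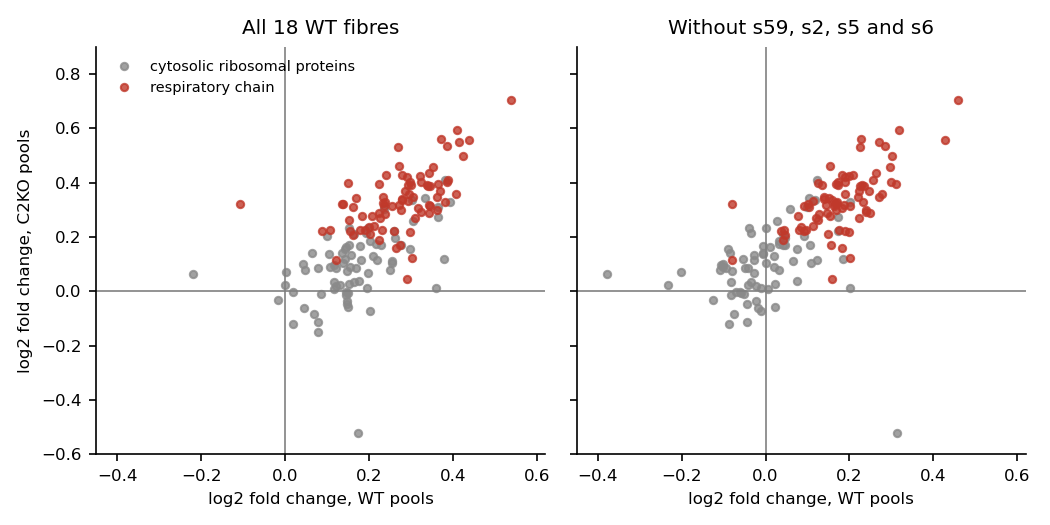
Log2 fold change of each gene, high-Mb over low-Mb, in WT pools (horizontal axes) and C2KO pools (vertical axes), for the 80 tested respiratory genes (red) and the cytosolic ribosomal protein genes (grey), with all 18 WT fibres (left) and without s59, s2, s5 and s6 (right). All red points lie above 0 on the C2KO axis, and 79 of 80 on the left and 78 of 80 on the right lie above 0 on the WT axis, while the grey cloud moves to a WT median of -0.01 on the right.

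Other mitochondrial lists had smaller medians in the WT pools, with no test of the difference. With the exon-length offset this order did not hold, since beta-oxidation was at 0.09 and the citrate cycle at 0.06, beside 0.06 for complex I. In the citrate cycle, which feeds the chain with NADH, 19 of 22 genes were above 0 with a median of 0.13 in WT, and 21 of 22 with 0.20 in C2KO. Ogdh, a subunit of the oxoglutarate dehydrogenase complex and among its most abundant members, had medians of 1034 CPM in the low and 1022 CPM in the high class and a log2 fold change of -0.06 (SE 0.08). In beta-oxidation of fatty acids 18 of 22 were above 0 with a median of 0.16 in WT, and 20 of 22 with 0.21 in C2KO. Acadvl, which starts the oxidation of long chains, had medians of 236 and 254 CPM and 0.17 (SE 0.09), and Hadhb 196 and 228 CPM and 0.10 (SE 0.10). The mitochondrial ribosomal proteins had 71 of 76 above 0 with a median of 0.20 in WT and 70 of 76 with 0.21 in C2KO. Among 31 genes of import and dynamics 26 were above 0 in WT (median 0.16). Slc25a4, the ADP/ATP carrier of muscle, had medians of 3711 and 4488 CPM and 0.23 (SE 0.08), and the pore Vdac1 had 807 and 990 CPM and 0.04 (SE 0.07).

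Regulators known to drive oxidative genes had smaller values. Of 18 tested 12 were above 0, with a median of 0.09 in WT pools, 0.15 with the length offset and 0.02 in C2KO. Rxra and Rxrg, nuclear receptors, were at -0.04 (SE 0.09) and 0.03 (SE 0.10). Lipid uptake and storage genes had a median of -0.06 in WT, 0.11 without the 4 libraries and 0.33 in C2KO, haem and iron genes 0.06 and 0.07, hypoxia response genes 0.10 and 0.07, and antioxidant genes 0.08 (-0.01 with the offset) and 0.11. No gene of these lists passed in the WT pools by edgeR. DESeq2 called Cd36, a fatty acid transporter, higher (log2 1.32, adjusted p = 0.0425). Along log2 Mb over the 27 WT fibres, 1 of 15 lipid uptake genes and 1 of 13 hypoxia response genes were called lower, where 1.2% of all genes were called. With sex-linked class added 0 of these lists' genes were called. Lists were not tested against each other.

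**Figure D4:**
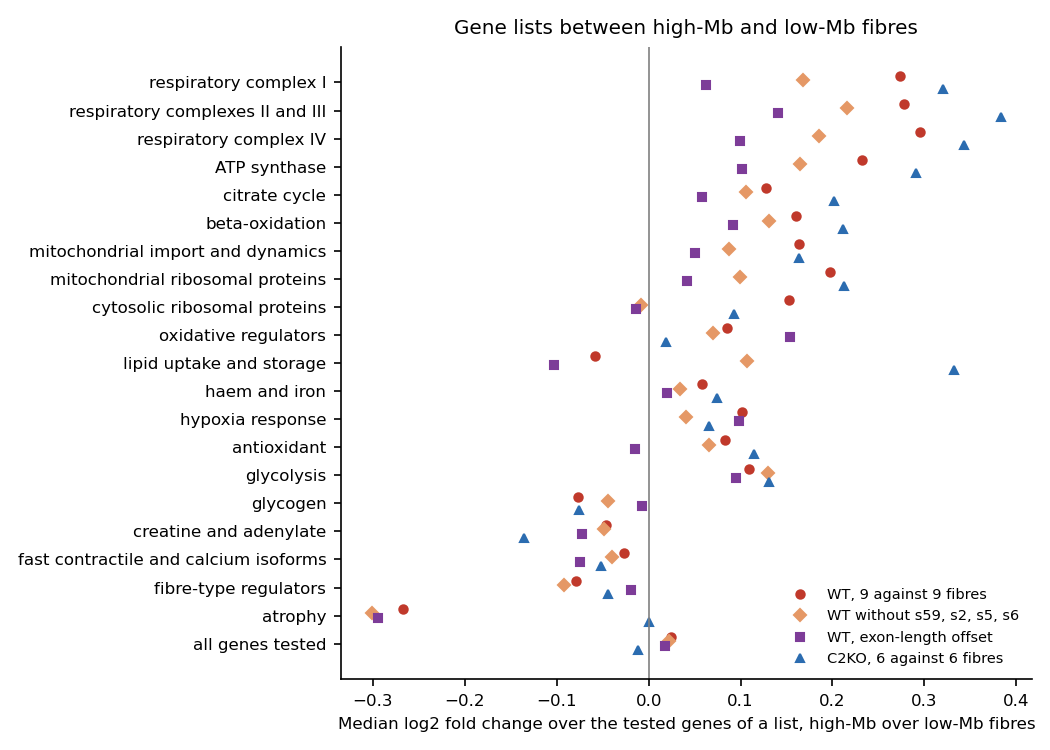
Median log2 fold change, high-Mb over low-Mb fibres (horizontal axis), over the tested genes of each list (rows) in WT pools, in WT pools without 4 libraries, in WT pools with an exon-length offset, and in C2KO pools. The 4 respiratory lists stand furthest to the right in the WT pools, at 0.23 to 0.30, and lie at 0.06 to 0.14 with the offset, where the oxidative regulators are at 0.15.

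Glycolysis did not stand lower where Mb was higher. Of 18 genes tested, 14 were above 0 with a median of 0.11 in WT, and 15 with 0.13 in C2KO. Aldoa, the muscle aldolase, had 24293 to 32617 CPM in low-Mb and 28177 to 38388 CPM in high-Mb fibres, a log2 fold change of 0.21 (SE 0.06). Eno3, the muscle enolase, had 6135 to 9509 CPM and 8772 to 10388 CPM and 0.34 (SE 0.11). Pygm, glycogen phosphorylase, was at -0.02 (SE 0.06), and the glycogen list had 5 of 16 above 0 with a median of -0.08. Ckm, the cytosolic creatine kinase, was at 0.04 (SE 0.06), and creatine and adenylate genes had 5 of 13 above 0 with a median of -0.05.

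One member of that last list went with the mitochondria. Ckmt2 (mm10 chromosome 13, 91853387 to 91876885), the creatine kinase of the mitochondrial membrane, was chosen after its values were seen. It had 229 to 523 CPM in low-Mb fibres (median 338) and 379 to 823 CPM in high-Mb fibres (median 586). Its log2 fold change was 0.48 (SE 0.08), at 0.46, 0.47 and 0.49 in runs C, A and B, and it was 0.52 without the 4 libraries. In C2KO fibres it had 277 to 689 CPM in the low and 565 to 1229 CPM in the high class, a log2 fold change of 0.85 (SE 0.16). By edgeR it passed neither in WT nor in C2KO pools, and DESeq2 called it on the WT pools (adjusted p = 0.001).

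By edgeR on the WT pools no gene of the myosin and contractile lists passed. Along log2 Mb over the 27 WT fibres Ryr1, the calcium release channel, fell by 0.45 (edgeR adjusted p = 0.0244). With sex-linked class added Mybph, a relative of myosin binding protein C, fell by 2.33 (edgeR adjusted p = 0.0394). Its sign was not stable. Among the fits set beside the WT pools, which did not include that one, Mybph ran from -1.53 to 2.37 and passed in none. Myh4 had medians of 67952 CPM in low-Mb and 66822 CPM in high-Mb fibres and a log2 fold change of -0.15 (SE 0.06). Myh1 and Myh2, the myosins of types IIx and IIa, had low-class medians of 170 and 174 CPM and high-class medians of 183 and 185 CPM, with -0.09 (SE 0.08) and -0.22 (SE 0.09). Myh7, the slow myosin, did not exceed 0.173 CPM in any of the 18 fibres. The 17 fast isoforms had a median of -0.03, with Atp2a1, the fast calcium pump, at -0.14 (SE 0.05) and Tnnt3, the fast troponin T, at -0.02 (SE 0.05). Of 16 slow isoforms, 9 had enough counts to be tested, and 2 of these, Casq2 (under 3 CPM in every fibre) and Actn2, were above 0. For Actn2 (chromosome 13, 12269427 to 12340732), an alpha-actinin of the Z-disc, the high-Mb fibres had 74.1 to 508 CPM (median 309) and low-Mb fibres 64.6 to 336 CPM (median 94.3). Its log2 fold change was 0.89 (SE 0.32), at -0.10 in run C, 1.14 in run A and 1.60 in run B.

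None of the 5 genes that tracked Mb most closely over the 27 WT fibres was a respiratory subunit. Among 6044 genes with a mean of at least 10 CPM, the highest Spearman correlations were those of Pgp (0.82), Cacybp (0.80), Ctsb (0.78), Aes (0.77) and Slc25a11 (0.77), and the lowest were those of Fam210b (-0.73), Jak1 (-0.72), Tnip2 (-0.71), Odc1 (-0.69) and Musk (-0.69). These values are descriptions with no test. Pgp, a phosphoglycolate phosphatase that repairs side products of metabolism, had 48.2 to 80.3 CPM in low-Mb and 80.5 to 118 CPM in high-Mb fibres. It was chosen by its correlation with Mb over these fibres, so the lack of overlap is no result. Its log2 fold change was 0.40 (SE 0.09). Slc25a11, the mitochondrial carrier of oxoglutarate and malate, had 203 to 307 CPM and 302 to 407 CPM and 0.32 (SE 0.09). Musk, the receptor kinase of the neuromuscular junction, had 13.3 to 32.1 CPM and 6.29 to 15.5 CPM and -0.89 (SE 0.15). Odc1, which makes polyamines, had 62.4 to 182 CPM and 41.4 to 74.2 CPM and -1.10 (SE 0.26). The rank correlation with Mb over the 20 C2KO fibres was 0.85 for Pgp, 0.84 for Aes, 0.77 for Slc25a11, 0.44 for Ctsb and -0.03 for Cacybp, and for the 5 lowest genes it ran from -0.38 to 0.09.

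**Figure D5:**
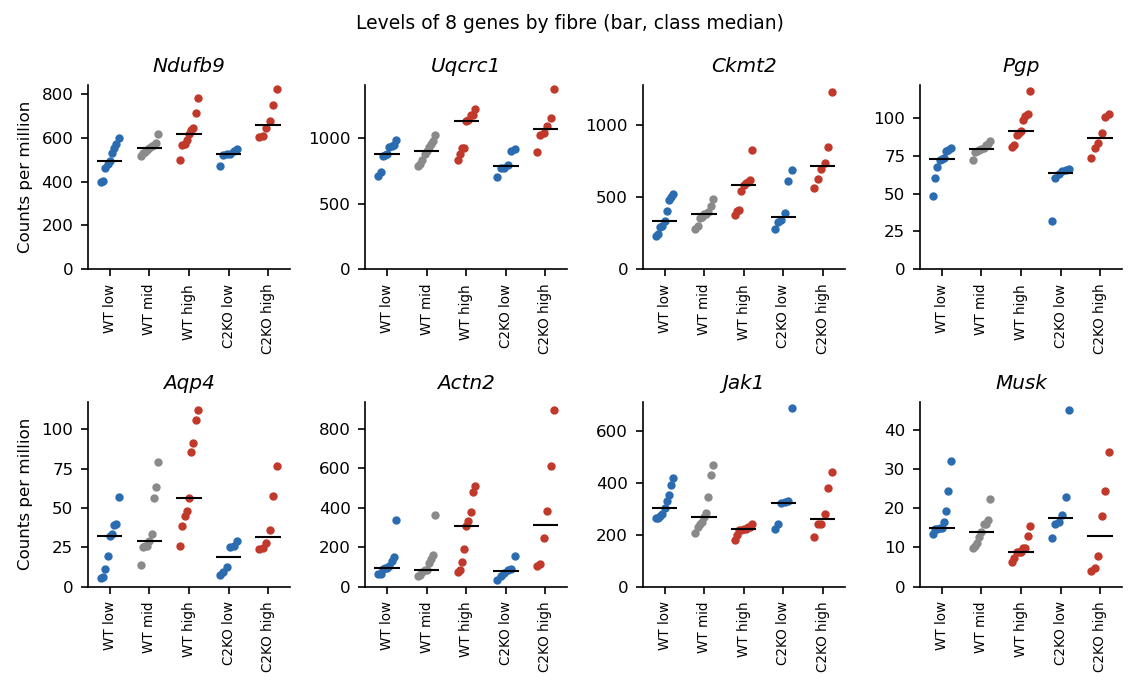
Level of 8 genes in CPM (vertical axes) in each WT fibre of the low, middle and high Mb class and each C2KO fibre of the low and high class, with class medians as bars. Pgp and Jak1 do not overlap between the WT low and high class, but both were picked from these same WT fibres. Actn2 spreads from 74.1 to 508 CPM within the WT high class.

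When log2 Mb was used as a continuous covariate over all 27 WT fibres, 113 of 9455 genes passed (1.2%), 37 rising and 76 falling with Mb. Aqp4, the water channel of fast fibres, rose by a log2 value of 1.47 over the class difference (SE 0.29, edgeR adjusted p = 0.0161), and Fxyd6, a regulator of the sodium pump, by 1.06 (SE 0.18, edgeR adjusted p = 0.00591). Mstn, the growth inhibitor myostatin, fell by 0.62 (SE 0.13, edgeR adjusted p = 0.0169). With sex-linked class as a further covariate their adjusted p values were 0.0799, 0.0905 and 0.0944 by edgeR, and all 3 were chosen after their values were seen. Of the 113, 10 were also among the 25 genes (0.264%) called once sex-linked class was added. Without s2, s5 and s6 the continuous test called 0 genes (smallest edgeR adjusted p = 0.0868). These 3 fibres were the lowest in Mb, so leaving them out also shortened the range of Mb. Why the calls were lost was not tested. In C2KO pools, 33 of the 37 risers and 58 of the 76 fallers had the same sign, 89.2% and 76.3%, where 47.9% and 52.1% of all C2KO genes had these signs.

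In C2KO pools 14 of 11316 genes passed (0.124%), 7 higher and 7 lower in high-Mb fibres. Lpl, the lipase that frees fatty acids from lipoproteins, had 3.68 to 21.5 CPM in low-Mb and 15.3 to 161 CPM in high-Mb C2KO fibres and rose by a log2 value of 2.58 (SE 0.19, edgeR adjusted p = 0.00231). Actn2 rose by 2.16 (SE 0.27, edgeR adjusted p = 0.0257), Car3, the carbonic anhydrase of muscle, by 1.55 (SE 0.20, edgeR adjusted p = 0.0257), and Aqp4 by 1.16 (SE 0.16, edgeR adjusted p = 0.0425). Their WT log2 fold changes were 0.57 (SE 0.46) for Lpl, 0.89 for Actn2, 0.57 (SE 0.19) for Car3 and 1.36 (SE 0.20) for Aqp4, and none passed in the WT pools by edgeR, whereas DESeq2 called Aqp4 on the same pools (adjusted p = 8.94e-07). Without the C2KO fibre s740-12 edgeR called 0 genes in C2KO (178 higher and 185 lower at an unadjusted p under 0.05), with log2 values of 2.39 for Lpl, 1.96 for Actn2, 1.65 for Car3 and 1.22 for Aqp4. With fibres as the unit 1 gene passed. These genes were chosen after their values were seen.

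Several stress and atrophy genes had large log2 values in WT and did not pass by edgeR on the WT pools. Mt1, Egr1 and Rcan1 each passed in 1 alternative WT fit. Along log2 Mb with sex-linked class added, 1 of 18 tested atrophy genes was called lower, where 0.264% of all genes were called. Without sex-linked class 0 of the 18 were called. Of 19 atrophy genes 6 were above 0 in WT, with a median of -0.27, against 9 of 19 and a median of 0.00 in C2KO. Sqstm1, a receptor of autophagy, had 831 to 1100 CPM in low-Mb and 703 to 889 CPM in high-Mb fibres and -0.32 (SE 0.10). Mt1, a metal-binding metallothionein, had medians of 896 and 406 CPM and -1.37 (SE 0.36). The immediate-early genes Egr1 and Junb, transcription factors of the early response to stimuli, were at -1.29 (SE 0.44) and -1.06 (SE 0.27). Rcan1, a calcineurin inhibitor, had 132 to 1943 CPM in low-Mb and 83.6 to 1705 CPM in high-Mb fibres and -1.57 (SE 0.57). Over the alternative WT fits Egr1 ran from -1.95 to 0.39, Junb from -1.45 to -0.0018 and Rcan1 from -2.38 to 0.10. The immediate-early and heat-shock list had a median of -0.26 in WT pools, 0.18 in run B and 0.03 over single fibres with sex-linked class. Along log2 Mb it was -0.31 within the Y-linked fibres and 0.91 within the Xist fibres. The part of sex-linked class was not tested.

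Fibroblast markers were higher in 3 high-Mb fibres, and other marker sums overlapped between the classes. Summed endothelial markers ran from 0.317 to 5.16 CPM in high-Mb and from 0 to 3.80 CPM in low-Mb fibres, and fibroblast markers from 0.254 to 96.2 CPM and from 0.454 to 6.13 CPM, with 96.2 CPM in s58, 65.6 in s55 and 32.7 in s59. Of 12 fibroblast markers 4 had enough counts to be tested, all of them above 0, with a median log2 value of 2.31. In C2KO 9 were tested and 0 were above 0, with a median of -1.73. A marker can pass the count filter through the class where it is high, so no conclusion is drawn from these signs. The part of fibroblast RNA in the other results was not tested. Macrophage and leukocyte markers ran from 1.91 to 7.52 CPM and from 2.40 to 19.5 CPM. Of 11 such markers 3 had enough counts to be tested, all below 0 with a median of -1.42, under the same limit of the filter. Satellite cell markers, held up by Itga7 and Cdh15, ran from 136 to 235 CPM and from 124 to 240 CPM. Erythrocyte and adipocyte markers stayed under 1 CPM. Pericyte markers, most of them Abcc9, which muscle also expresses, ran from 86.3 to 256 CPM and from 159 to 316 CPM, and Schwann and nerve markers from 22.8 to 62.3 CPM and from 23.9 to 47.03 CPM. All these markers together reached at most 658 CPM in the high and 602 CPM in the low class, under the limit of 732 CPM set at 3 scaled median absolute deviations above the WT median, and the 1 fibre over it, s35 with 993 CPM, was of the middle class.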

How the data were processed

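RNA of single EDL fibres was sequenced, and the authors deposited raw counts of reads per gene for each fibre, which per the submitters' processing notes came from CASAVA 1.4, FastQC 0.11.2, HISAT2 2.0.5 and featureCounts 1.5.2 on mm10. Counts were used as deposited, for 24421 genes, and CPM were computed from them. WT fibres were ranked by Mb CPM, and the classes were compared with edgeR 4.0.16 in R 4.3.3 (TMM scaling, filterByExpr, quasi-likelihood test, Benjamini-Hochberg adjustment with Mb left out, threshold 0.05) on counts summed by run and class, with run as a block. The same test on single fibres, limma 3.58.1 and DESeq2 1.42.0 were alternatives. The pooled test was tested on simulated data of 11373 genes, where it called 56% of genes changed 2-fold. It also called 15 unchanged genes. The simulated data held no run effect and no change under 2-fold, so they do not show what the test does with smaller changes. Fibres are not tied to mice, so pairing by animal could not be used. Named genes were those called in either WT test with a mean of 10 CPM or more, the most abundant members of each list, the myosins, and the 5 highest and 5 lowest in correlation with Mb. The classes and gene lists were chosen with earlier results of these data known. The libraries that stood apart, and Sdhd, Cd36, Ryr1 and Mybph, were singled out after the data were seen. Motif windows were taken from RefSeq (GRCm38.p6). Some genes that the rule would name are not reported here.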

Additional observations from a re-analysis of the deposited data

Results flagged for a closer look

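In 17 of 142 groups of values examined, 1 fibre lay further from its class than Dixon's 95% critical value for the class size allows. Chance gives about 1 in 20. Among high-Mb WT fibres, s59 was the lowest in Myh4 (28821 CPM) and Atp2a1 (44580 CPM) and the highest in Cox6a2 (4166 CPM), Ckm (37816 CPM), Tnnt3 (27419 CPM) and the share of counts on transcripts under 1000 exonic bases (15.2%). Among low-Mb WT fibres, s6 was the highest in Pcdh7 (17.2 CPM), and s50 was the highest in Actn2 (336 CPM) and Lpl (114 CPM) and had the fewest counts (7769590). Among high-Mb C2KO fibres, s740-1 was the highest in Slc25a11 (423 CPM) and had the fewest counts (7648760). Among low-Mb C2KO fibres, s740-12 was the lowest in Pgp (31.995 CPM) and the highest in Jak1 (685 CPM) and Musk (45.1 CPM), and s740-6 was the lowest in Ndufb9 (472 CPM) and in the share of counts on short transcripts (9.32%).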

How the results depend on the processing

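The 0 calls in WT pools became 104 with DESeq2, 2 with single fibres, 1 with single fibres and sex-linked class, 113 with log2 Mb as a covariate and 1 with classes of like size taken within each run, and leaving out 1 run gave 0 to 57, the 57 without run B. The 2 calls over single fibres became 32 without a filter, 8 with the exon-length offset, 0 with limma-voom and 1 with a 1.5-fold threshold. With sex-linked class 1 gene was called, which was neither Jak1 nor Pcdh7. Leaving out 1 fibre gave 0 to 45, with 45 without s79, 39 without s57, 12 without s76 and 5 without s58. With log2 Mb as a covariate there were 113 calls, 25 with sex-linked class, 2 within the Y-linked fibres (also 2 there without s2, s5 and s6), 0 within the Xist fibres, 200 without s59, 0 without s2, s5 and s6 and 0 without all 4. Without s2, s5 and s6, or all 4, the single-fibre test called 0. The 14 calls in C2KO became 1 with RLE size factors, 75 without a filter, 1 with single fibres, 329 within 1 run and 0 without s740-12. The respiratory median of 0.28 was 0.16 with classes taken within runs, 0.14 with 13 against 13 fibres and 0.11 with the exon-length offset, and 0.20 to 0.33 when 1 run was left out. It was above 0 in every alternative run. Of the 5 genes most like Mb, 3 remained on residuals from run means. The causes were not tested. No paired analysis was possible because no label ties a fibre to a mouse or shares a replicate number between classes.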
